A study of Homo sapiens with 10 samples.

Results

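The 160 protein-coding messages described here were higher in every protrusion library than in any cell body library of MDA-MB-231, an established triple-negative human breast cancer cell line. They were picked by a rule on the deposited values themselves: a mean of at least 10 over the protrusions, a mean at least 1.5 times that of the cell bodies, and a lowest protrusion above the highest cell body. Messages of large families (such as Rab GTPases, solute carriers, zinc fingers, respiratory chain and proteasome subunits) and ANP32B were left out by name. The 160 were 1.00% of the 15954 coding entries in the table, which holds 26134 entries in all, and 4.70% of the 3403 coding entries with a protrusion mean of 10 or more. They are counted by identifier, and 1 symbol is among them under 2 identifiers. These are C19orf24, at 46.1 in protrusions against 27.7 in cell bodies, and C19ORF24, at 14.3 against 8.45. Because the same contrast chose them, their higher level in protrusions is a description and carries no test.

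There were 5 libraries of cell protrusions and 5 of the matching cell bodies, each group carrying the numbers 1 to 5. The labels name no edit or added agent for either group. Cells were trapped singly by hooks on a microfluidic chip and put out protrusions for 6 h. They were then fixed for 15 min in 4% paraformaldehyde, and both compartments were cut out by laser capture before their poly(A) RNA went through SMART-Seq v4 amplification. The number of cells per library and whether libraries came from separate cultures are not stated, so the spread between libraries may be technical, and so may what the p-values measure.

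Values are called scaled TPM: they behave as TPM, a level per length of transcript, multiplied by 1 factor per library. The factors ran from 0.737 to 1.10 in protrusions and from 0.967 to 1.39 in cell bodies. The read depth is unknown. The compartments were told apart by RAB13, a message known to localise to protrusions, at 197 to 297 in protrusions and 29.7 to 52.5 in cell bodies. The nuclear RNA MALAT1 was at 47.5 to 143 in cell bodies and at 0.288 to 5.06 in 4 protrusions, while protrusion 2 held 25.2. Protrusion 2 also had more genes at 1 or more, 10471 against 9124 to 9378 in the other protrusions. All 6 markers of the line, VIM and CD44 among them, were present in both compartments. Of the luminal list, KRT8 and KRT18 were high, ERBB2 was at 0.992 to 4.75 and EPCAM at 0.787 to 5.25 in protrusions, CDH1 did not pass 0.107 in protrusions or 1.38 in cell bodies, and PGR was at 0 in every protrusion. Of the keratinocyte list 2 of 6 genes had an entry, and KRT10 was present. The summed fibroblast list was at 0.0430 to 0.375 in protrusions and at 0.784 to 3.73 in cell bodies, where COL1A1 held 0.730 to 3.53, and LUM, DCN and COL1A2 were at 0 in every protrusion. The summed blood list, with entries for 5 of 7 genes, was at 0.0740 to 2.53 in protrusions and at 9.68 to 20.3 in cell bodies, where LYZ alone made up that range. Of the 3 endothelial markers only 1, VWF, had an entry, and it did not pass 0.01. The part of these differences in the results was not tested.

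A protrusion is a thin extension that a migrating cell pushes out ahead of its body. Some messages are carried into it along microtubules and anchored there, and many can be translated on site. Others fill it because they move freely through the cytoplasm, while RNAs kept in the nucleus or the perinuclear region stay behind. A higher share of a message in a protrusion can therefore reflect where that message is or where the rest of the RNA is, and a library of a fixed total cannot tell more of a message from less of the others.

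Most of the 160 passed the ratio by a small margin. The ratio of means ran from 1.5 to 6.12 with a median of 1.63, with quartiles at 1.56 and 1.73. A ratio of at least 2 was found for 11 messages. Protrusion means ran from 10.4 to 337 with a median of 36.7, and cell body means from 5.27 to 218 with a median of 21.1. The lowest protrusion exceeded the highest cell body by a median factor of 1.12. The coefficient of variation had a median of 15.0% over the protrusions and 17.9% over the cell bodies.

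**Figure D1:**
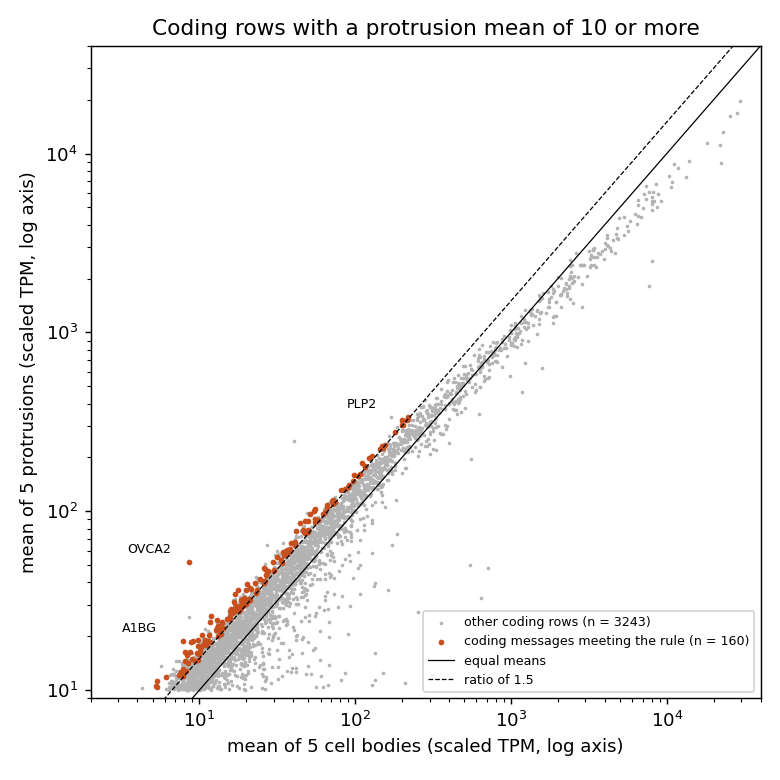
Mean of the 5 protrusions (vertical, log axis) against the mean of the 5 cell bodies (horizontal, log axis) in scaled TPM, 1 point per coding entry with a protrusion mean of 10 or more. The 160 messages (orange) form a band along the dashed line for a ratio of 1.5, with OVCA2 standing off it at a ratio of 6.12.

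In the fit of all genes (limma on log2(value + 1), adjusted over the 10894 genes tested), 430 of 9072 coding genes, 4.74%, were called higher in protrusions and 1532, 16.9%, lower. With the replicate number as a block the counts were 1319 higher, 14.5%, and 1906 lower, 21.0%. All 160 messages passed the filter on low values, and 159 of them were called, the exception being SCARB1, the scavenger receptor for high-density lipoprotein; with the block 160 were called. The fit used the contrast of the rule, so nothing is read from these counts. Of the 3403 coding entries with a protrusion mean of 10 or more, 171, or 5.02%, met the numbers when family names were kept. The 11 left out by name were ANP32B, ATP6V0C, EIF3D, EIF3L, KDELR1, MRPL30, NDUFB9, PSMB10, RAB13, RAB5C and SLC25A10. In the authors' deposited table, the log2 fold change pointed to protrusions for 157 of the 160. The lowest false discovery rate of any of the 160 in the authors' deposited table was 0.724.

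The edges of the rule cut through a continuum. Just inside the ratio were PNKD at 1.504, PTPMT1 at 1.505 and LMNB2 at 1.509, and just outside were GNB2 at 1.499, ARL6IP4 at 1.497 and VTA1 at 1.497. Just inside the protrusion mean were ATG4D at 10.4, PINK1 at 10.6 and ICMT at 11.2, and just outside were P2RX5 at 9.98, WBP1 at 9.91 and THOP1 at 9.89. A further 257 coding entries had the level and the ratio but overlapping groups, and 106 had the level and the separation but a ratio under 1.5.

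The messages with the largest ratio came from genes of unrelated roles. OVCA2, a serine hydrolase, stood at 53.2, 29.2, 74.0, 56.9 and 47.2 in protrusions 1 to 5 and at 10.4, 0, 18.9, 11.7 and 1.49 in cell bodies 1 to 5. The groups were far apart, and the cell bodies spread from 0 to 18.9. The mean was 52.1 ± 16.2 (SD, n = 5) against 8.51 ± 7.82 (SD, n = 5). Its ratio of 6.12 ranged from 4.89 without cell body 2 to 8.82 without cell body 3. A1BG, a secreted glycoprotein of the immunoglobulin superfamily, stood at 16.5, 32.4, 10.7, 16.4 and 18.1 in protrusions and at 7.51, 8.43, 7.22, 9.40 and 6.73 in cell bodies. Protrusion 2 was the high one, and without it the ratio of 2.39 became 1.96. UACA, a coiled-coil protein with ankyrin repeats, stood at 23.8, 43.5, 15.9, 15.7 and 30.9 in protrusions and at 12.5, 15.1, 14.0, 10.1 and 7.29 in cell bodies. Protrusion 2 was again the highest, and protrusions 3 and 4 were only just above the highest cell body.

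Of the messages for membrane enzymes and vesicle proteins in this range, SYNGR1, a membrane protein of small vesicles, stood at 26.2, 14.6, 14.0, 19.8 and 18.5 in protrusions and at 9.66, 6.98, 10.4, 11.5 and 5.75 in cell bodies. Protrusion 1 was highest and cell body 5 lowest. ICMT, which methylates the prenylated ends of Ras proteins, stood at 9.52, 9.42, 12.2, 12.5 and 12.3 in protrusions and at 4.29, 4.99, 6.08, 5.78 and 5.55 in cell bodies. Its libraries were tightly grouped on both sides, at 11.2 ± 1.57 against 5.34 ± 0.706 (SD, n = 5 each). ZDHHC12, an enzyme that attaches palmitate to proteins, stood at 17.8, 18.6, 27.8, 16.5 and 13.3 in protrusions and at 9.11, 8.44, 12.1, 9.65 and 6.10 in cell bodies. Protrusion 3 and cell body 3 were the highest of their groups.

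Mitochondrial genes were represented in the same range by APOPT1 and PINK1. APOPT1, an assembly factor of respiratory complex IV, stood at 41.8, 43.5, 28.1, 34.3 and 34.6 in protrusions and at 21.8, 21.6, 20.4, 13.9 and 10.2 in cell bodies. Cell bodies 4 and 5 were lower than the other cell bodies. PINK1, the kinase that marks damaged mitochondria for removal, stood at 10.7, 7.68, 15.5, 8.06 and 11.0 in protrusions and at 4.43, 4.38, 7.24, 6.53 and 3.75 in cell bodies. The gap was narrow, from 7.24 in cell body 3 to 7.68 in protrusion 2.

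Cytoskeletal and RNA-decay genes completed the 12 largest ratios. KLC1, a light chain that ties the motor kinesin to its cargo, stood at 13.2, 15.5, 12.6, 9.99 and 30.5 in protrusions and at 5.75, 9.52, 7.14, 8.0 and 9.84 in cell bodies. Protrusion 5 carried much of the difference, and without it the ratio of 2.03 became 1.59. KRT7, a keratin of simple epithelia, stood at 40.3, 31.0, 28.8, 34.3 and 36.8 in protrusions and at 18.7, 11.5, 16.2, 18.3 and 19.9 in cell bodies. No library stood apart, and the means were 34.2 ± 4.56 against 16.9 ± 3.31 (SD, n = 5 each). RQCD1, a subunit of the CCR4-NOT deadenylase, stood at 20.3, 27.1, 16.0, 15.7 and 22.4 in protrusions and at 11.3, 7.79, 12.6, 10.4 and 9.79 in cell bodies. C9orf16 stood at 18.3, 40.4, 22.9, 20.2 and 18.5 in protrusions and at 12.4, 14.8, 11.5, 10.7 and 9.03 in cell bodies. For both, protrusion 2 was the highest library, and for C9orf16 the ratio of 2.06 became 1.71 without it.

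**Figure D2:**
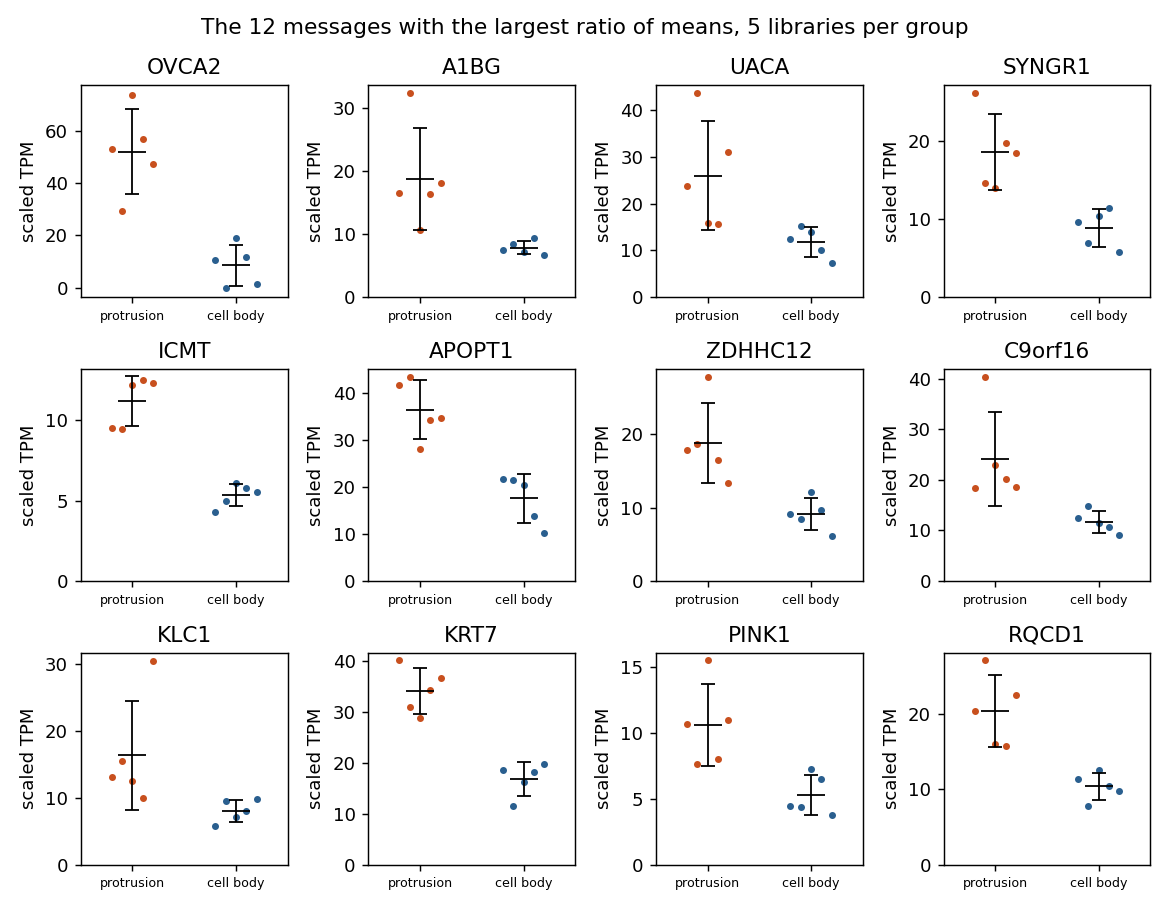
Scaled TPM of the 12 messages with the largest ratio of means in each of the 5 protrusion and 5 cell body libraries (points), with the mean and SD of each group in black. No group pair overlaps, as the rule required, and single high protrusions stand out for A1BG (32.4), C9orf16 (40.4) and KLC1 (30.5).

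The most abundant of the 160 had ratios near the lower edge, 1.5 to 1.61. PLP2, a small membrane protein with several spans, stood at 351, 411, 300, 302 and 322 in protrusions and at 257, 230, 207, 232 and 164 in cell bodies. CYBA, the p22 subunit of the NADPH oxidase, stood at 339, 290, 270, 317 and 411 in protrusions and at 239, 162, 239, 247 and 184 in cell bodies. TAF10, a subunit of the general transcription factor TFIID, stood at 335, 394, 299, 282 and 300 in protrusions and at 242, 224, 200, 178 and 153 in cell bodies. For all 3 the groups were separate but close, with protrusion 2 or 5 on top. VKORC1, the vitamin K epoxide reductase that warfarin inhibits, stood at 308, 326, 254, 297 and 338 in protrusions and at 216, 186, 196, 225 and 185 in cell bodies. SRM, spermidine synthase, stood at 297, 277, 334, 334 and 275 in protrusions and at 209, 160, 223, 231 and 170 in cell bodies. Cell bodies 2 and 5 were the low ones for both.

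GUK1, which phosphorylates GMP, stood at 294, 244, 279, 306 and 258 in protrusions and at 189, 115, 218, 211 and 169 in cell bodies. PNKD stood at 226, 262, 217, 269 and 199 in protrusions and at 180, 151, 154, 180 and 115 in cell bodies. TXNL4A, a spliceosomal protein with a thioredoxin fold, stood at 226, 258, 233, 232 and 212 in protrusions and at 159, 108, 188, 163 and 129 in cell bodies. TXNL4A varied little among protrusions, at 232 ± 16.8, and more among cell bodies, at 149 ± 31.3 (SD, n = 5 each).

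The libraries did not contribute evenly. The summed value of the 160 was 10624 to 10853 in the protrusions, a narrow range, and 5638 to 7370 in the cell bodies. As a share of the library's sum this was 0.981% to 1.47% in protrusions and 0.406% to 0.762% in cell bodies, with protrusion 2 lowest of its group at 0.981%. Cell body 2 held the lowest value of 91 messages and cell body 5 that of 47, together 138 of the 160. The highest cell body was number 3 for 77 messages and number 4 for 47. Low levels in cell body 2 were not limited to the 160. Over 666 G+C-poor coding entries outside the rule, medians in cell bodies 1 to 5 were 31.2, 24.6, 31.3, 28.8 and 26.1. Over 579 G+C-rich entries outside the rule, they were 25.1, 20.1, 31.3, 30.1 and 25.2. All these entries reached the rule's protrusion mean. Lowest values were not counted for other coding entries.

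Within the replicate numbers, the median ratio of protrusion to cell body was 1.51, 1.98, 1.5, 1.5 and 1.81 for numbers 1 to 5. Numbers 2 and 5 gave the larger ratios, and their cell bodies were the low ones. A ratio of at least 1.5 was reached by 82, 151, 79, 78 and 150 messages in numbers 1 to 5, and by 18 messages in every number. Those 18 were PEMT, KRT7, C22orf32, PXMP2, MDK, TMEM54, NENF, ZDHHC12, LY6E, OVCA2, MFAP2, CERS2, ZDHHC4, PRKAR1B, DGCR6L, EFHD2, ICMT and IRAK1. They include 2 palmitoyltransferases, ZDHHC12 and ZDHHC4, the growth factor midkine (MDK), PEMT, which makes phosphatidylcholine from phosphatidylethanolamine, and IRAK1, a kinase below interleukin-1 and Toll-like receptors. The lowest ratio of any of the 160 was 1.09, 1.18, 1.02, 1.05 and 1.28 in numbers 1 to 5.

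**Figure D3:**
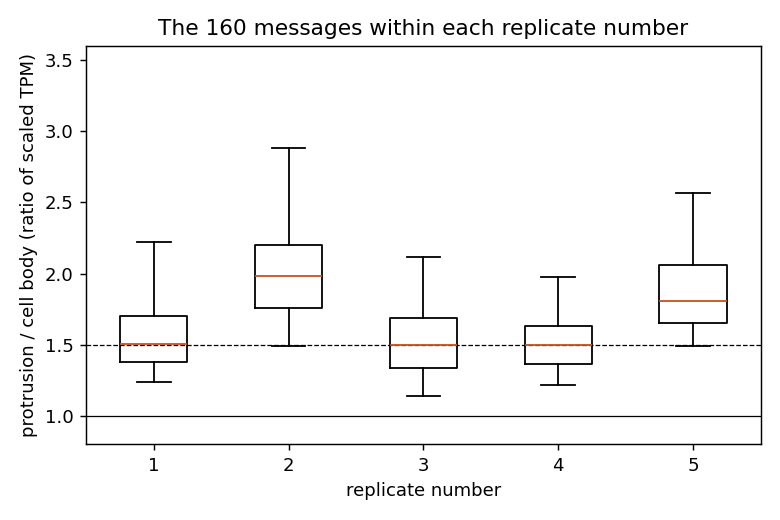
Ratio of protrusion to cell body (scaled TPM) of the 160 messages within each replicate number. Boxes give the median and quartiles, whiskers the 5th and 95th percentile, and the dashed line a ratio of 1.5. Numbers 2 and 5 sit higher, with medians of 1.98 and 1.81, than numbers 1, 3 and 4.

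The 160 were spread over many functions. Of 26 families defined by gene name, 46 of the 160 fell in at least 1. Calls in the paragraphs below are from the limma fit of all genes with adjusted p-values, to be read against 4.74% of coding genes called higher and 16.9% called lower. That fit leaves out the pairing of libraries by number, and so do the adjusted p-values given for single genes. A family's higher calls include any of the 160 in it, which the rule picked on the same contrast. No family was tested as a set. Under the replicate block, the families together had 842 calls, against 406 without it, and a block count is to be read against 14.5% higher and 21.0% lower. With quantile normalization 19.3% of coding genes were called higher. Calls also moved with single libraries, and those that moved a family's count by over 1.5 times are named. Over all coding genes, 238 to 617 were called higher without 1 library.

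Enzymes that handle nucleotides and one-carbon units had 8 of 53 tested genes called higher, 15.1%, and 2 called lower. Under the block these were 21, 39.6%, and 6. Of the 8 called higher without the block, 4 did not meet the rule. The median log2 change was 0.26, which is 0.24 above that of all tested coding genes. With quantile normalization 13 were called higher, 24.5%, and the median was 0.08 above. Only 4 were called higher without protrusion 4, and 5 without protrusion 1 or cell body 1, 2 or 5. The 4 that met the rule were AK1, NME4, NME3 and GUK1, all kinases that move phosphate between nucleotides. AK1, the cytosolic adenylate kinase, stood at 77.6, 80.4, 89.3, 70.6 and 67.6 in protrusions and at 56.0, 36.4, 57.2, 50.4 and 40.6 in cell bodies. NME4, a mitochondrial nucleoside diphosphate kinase, stood at 205, 183, 240, 219 and 169 in protrusions and at 143, 104, 132, 149 and 114 in cell bodies. In both, cell body 2 was the lowest library. Of family genes outside the rule, DCTPP1, which breaks down dCTP, rose (137 ± 6.28 against 94.1 ± 18.7, adjusted p = 0.0190 by limma), and NME6 fell (27.9 ± 10.8 against 62.7 ± 6.40, adjusted p = 0.00117 by limma; SD, n = 5 each).

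Redox enzymes had 7 of 53 tested genes called higher, 13.2%, and 2 lower, with a median log2 change of 0.27, which is 0.24 above that of all tested coding genes. Under the block these were 19, 35.8%, and 4. Of the 7 called higher without the block, 3 did not meet the rule. With quantile normalization 14 were called higher, 26.4%, and the median was 0.05 above. Without protrusion 4 or cell body 5 only 3 were called higher, and without protrusion 5 only 4. The members were MSRB3, MSRB2, TXNDC5 and TXNL4A, of which TXNL4A belongs by name and acts in splicing. MSRB3, a methionine sulfoxide reductase, stood at 7.29, 14.5, 12.6, 13.7 and 10.7 in protrusions and at 5.50, 5.87, 6.96, 6.11 and 6.03 in cell bodies. Protrusion 1 was the low one, just above cell body 3. MSRB2, its mitochondrial relative, stood at 34.9, 31.7, 35.5, 25.9 and 30.5 in protrusions and at 20.5, 15.6, 23.7, 23.9 and 15.6 in cell bodies. TXNDC12, outside the rule, rose (42.3 ± 5.82 against 28.3 ± 4.41, adjusted p = 0.0210 by limma), while thioredoxin itself, TXN, fell (2055 ± 467 against 3083 ± 581, adjusted p = 0.0242 by limma; SD, n = 5 each).

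Membrane and assembly factors of mitochondria had 10 of 74 tested genes called higher, 13.5%, and 5 lower, with a median log2 change of 0.22, which is 0.20 above that of all tested coding genes. Under the block these were 26, 35.1%, and 8. Of the 10 called higher without the block, 7 did not meet the rule. With quantile normalization 16 were called higher, 21.6%, and the median was 0.07 above. Only 4 were called higher without protrusion 4, and 6 without protrusion 1 or 5 or cell body 2 or 5. APOPT1, SURF1 and MPV17L2 met the rule. SURF1, like APOPT1 needed for complex IV, stood at 32.4, 29.1, 34.4, 25.2 and 33.4 in protrusions and at 18.1, 10.3, 21.2, 17.9 and 16.2 in cell bodies. Not all of the family moved this way. MFN1, which fuses mitochondria, fell (4.88 ± 5.14 against 142 ± 57.6, adjusted p = 8.52e-07 by limma), and so did the elongation factor GFM1 (9.83 ± 3.26 against 24.1 ± 6.93, adjusted p = 0.00109 by limma; SD, n = 5 each).

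Mitochondrial metabolism had 7 of 126 tested genes called higher, 5.56%, and 12 lower, 9.52%. The median log2 change was 0.23, which is 0.21 above that of all tested coding genes. With quantile normalization 31 were called higher, 24.6%, and the median was 0.13 above. Under the block 34 were higher, 27.0%, and 12 lower. Without protrusion 2 there were 15 higher, and without cell body 1 or 2 there were 4. NUDT14, MMAB and COQ4 met the rule. NUDT14, which cleaves UDP-sugars and belongs to the family by name, stood at 44.8, 25.5, 42.6, 36.1 and 48.0 in protrusions and at 20.8, 14.5, 24.2, 24.3 and 17.1 in cell bodies. MMAB, which makes adenosylcobalamin, stood at 16.9, 21.4, 23.6, 26.9 and 25.1 in protrusions and at 13.1, 7.74, 16.0, 16.5 and 12.2 in cell bodies. For both the groups were only just apart.

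In the secretory pathway, glycosylation and GPI anchor genes had 5 of 97 called higher, 5.15%, and 9 lower, 9.28%. Their median log2 change was 0.10, which is 0.08 above that of all tested coding genes. With quantile normalization 25 of 94 were called higher, 26.6%, and the median was 0.13 above. Under the block 15 were higher, 15.5%, and 13 lower. Vesicle traffic genes had 13 of 210 called higher, 6.19%, and 26 lower, 12.4%. Under the block 44 were higher, 21.0%, and 33 lower. Without protrusion 2 the glycosylation count of higher calls was 8, and without protrusion 5 or cell body 5 it was 3. The vesicle count of higher calls was 5 without protrusion 4, 6 without protrusion 3, 7 without cell body 2 or 5 and 8 without protrusion 1. MGAT4B, which branches N-glycans, stood at 17.2, 19.0, 16.0, 18.6 and 24.9 in protrusions and at 8.75, 9.63, 11.2, 12.5 and 12.1 in cell bodies. ALG3, a mannosyltransferase, stood at 61.2, 65.7, 64.8, 75.0 and 57.8 in protrusions and at 49.5, 28.0, 46.2, 48.8 and 33.8 in cell bodies. Cell bodies 2 and 5 were the low ones for ALG3. PRAF2, of the prenylated Rab acceptor family, stood at 10.6, 15.9, 15.3, 11.0 and 12.4 in protrusions and at 8.20, 7.56, 7.39, 9.03 and 7.22 in cell bodies. YIPF3, a Golgi membrane protein, stood at 32.2, 24.6, 31.7, 32.3 and 31.1 in protrusions and at 20.2, 12.8, 22.5, 23.1 and 19.5 in cell bodies. For YIPF3 the libraries numbered 2 were the lowest of both groups. ERGIC3 and TRAPPC5 also met the rule, while SEC23A, a coat subunit, fell (2.74 ± 1.53 against 28.1 ± 8.08, SD, n = 5 each, adjusted p = 1.21e-06 by limma).

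Lipid synthesis had 6 of 88 tested genes called higher, 6.82%, and 12 lower, 13.6%. Under the block 17 were higher, 19.3%, and 13 lower. Without protrusion 3 or 4 or cell body 5 there were 3 higher. CERS2, the ceramide synthase for very long chains, stood at 28.3, 32.9, 45.5, 38.1 and 39.8 in protrusions and at 18.3, 16.9, 26.4, 25.3 and 20.2 in cell bodies. PTDSS1, which makes phosphatidylserine, stood at 19.8, 17.3, 22.2, 22.8 and 21.4 in protrusions and at 12.8, 11.6, 15.8, 16.2 and 12.1 in cell bodies. Libraries 3 and 4 were high in both groups for PTDSS1.

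Ubiquitin conjugation had 8 of 279 tested genes called higher, 2.87%, and 41 lower, 14.7%. Under the block 37 were called higher, 13.3%, and 49 lower. Without protrusion 4 or cell body 2 only 3 were called higher, and without protrusion 3 or cell body 5 only 4. RNF130, a membrane-bound RING ligase, stood at 10.7, 13.7, 15.1, 14.2 and 9.46 in protrusions and at 8.51, 6.05, 8.96, 8.90 and 5.45 in cell bodies. ANAPC15, a subunit of the anaphase-promoting complex, stood at 102, 99.1, 120, 115 and 107 in protrusions and at 78.2, 55.0, 77.2, 65.8 and 52.8 in cell bodies. The gap was narrow for RNF130 and wider for ANAPC15. TRIM47, UFD1L and GPS1 also met the rule.

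Apoptosis genes had 5 of 59 called higher, 8.47%, of which 3 did not meet the rule, and 8 lower, 13.6%. Under the block 11 were higher, 18.6%, and 15 lower. Signalling scaffolds and phosphatases had 9 of 164 called higher, 5.49%, and 19 lower, 11.6%. Under the block 27 were higher, 16.5%, and 23 lower. For apoptosis the count of higher calls was 8 without protrusion 2, 3 without protrusion 5 or cell body 1, and 2 without protrusion 3 or 4 or cell body 2 or 5. For signalling it was 14 without protrusion 2 and 5 without cell body 1. BNIP1, a SNARE of the endoplasmic reticulum that is in the family by its name, stood at 26.9, 23.0, 33.7, 30.5 and 26.7 in protrusions and at 18.0, 14.6, 16.8, 17.5 and 17.9 in cell bodies. BAD, which promotes cell death by binding BCL2 proteins, stood at 70.6, 63.9, 100, 82.6 and 67.6 in protrusions and at 49.7, 32.4, 53.6, 57.4 and 42.3 in cell bodies. Protrusion 3 was the highest library for both. PRKAR1B, a regulatory subunit of protein kinase A, stood at 25.6, 27.9, 26.3, 21.3 and 23.1 in protrusions and at 15.3, 15.6, 16.4, 13.3 and 14.5 in cell bodies. PHPT1, a protein histidine phosphatase, stood at 198, 243, 182, 193 and 176 in protrusions and at 139, 131, 124, 129 and 89.7 in cell bodies. PRKAR1B varied little in either group. CALM3, a calmodulin, and MAP2K2, the kinase that activates ERK, also met the rule, and DUSP3, a phosphatase of MAP kinases, fell (8.47 ± 3.02 against 91.0 ± 21.0, SD, n = 5 each, adjusted p = 3.22e-07 by limma).

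Genes named TMEM had 11 of 124 called higher, 8.87%, of which 6 did not meet the rule, and 16 lower, 12.9%. Under the block 27 were called higher, 21.8%. Without protrusion 4 there were 7, and without cell body 5 there were 6. TMEM54 stood at 82.3, 98.4, 121, 107 and 93.4 in protrusions and at 54.6, 43.4, 67.4, 61.0 and 45.5 in cell bodies. TMEM53 stood at 11.0, 13.9, 18.3, 17.7 and 13.9 in protrusions and at 8.86, 7.21, 9.31, 9.78 and 9.32 in cell bodies. TMEM216, TMEM219 and TMEM160 also met the rule. In ribosome biogenesis 4 of 81 were called higher, 4.94%, and 10 lower, 12.3%. Under the block 15 were higher, 18.5%, and 15 lower. NPM3, a nucleolar histone chaperone, stood at 11.7, 11.4, 21.3, 22.8 and 11.1 in protrusions and at 8.65, 9.62, 6.42, 10.9 and 5.88 in cell bodies. NOL12, a nucleolar protein, stood at 27.9, 22.2, 28.0, 30.1 and 36.0 in protrusions and at 21.0, 11.1, 21.1, 20.8 and 18.0 in cell bodies. Without protrusion 2 the number called higher in ribosome biogenesis was 7, without protrusion 4 it was 1, and without protrusion 3 or 5 or cell body 5 it was 2. NPM3 was high in protrusions 3 and 4, and the other protrusions lay just above the cell bodies.

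Several families had few or none of the 160. Actin and adhesion had 1, zyxin (ZYX), a focal adhesion protein at 22.3 against 14.1, with 7 of 132 tested genes called higher, 5.30%, and 19 lower. Under the block 21 were higher, 15.9%. Without protrusion 2 there were 11, without protrusion 4 there were 2, without protrusion 5 or cell body 5 there were 3 and without cell body 1 there were 4. The chaperonin with prefoldin, LSM proteins, RNA polymerase subunits, RNA modification, targeting to the endoplasmic reticulum, chromatin and nuclear transport had 0. Under the block, the chaperonin with prefoldin had 6 of 22 tested genes called higher, 27.3%. RNA polymerase subunits had 8 of 33, 24.2%, and targeting to the endoplasmic reticulum 10 of 42, 23.8%. The others of these families had 9.09% to 10.9%. Without the block, the median log2 change was 0.22 for the chaperonin with prefoldin and 0.21 for targeting to the endoplasmic reticulum. These are 0.20 and 0.19 above that of all tested coding genes. Cytosolic ribosomal proteins also had 0 of the 160. There limma called 0 of 86 higher and 15 lower, 17.4%, near the 16.9% of all coding genes, at a median log2 change of -0.34. Under the block 4 were higher and 63 lower, 73.3%. With each library set to the same sum 12 were higher, 14.0%, and 9 lower, 10.5%, against 15.5% and 12.1% of coding genes. With quantile normalization 11 were higher, 12.8%, and 10 lower, 11.6%, against 19.3% and 12.1%. With scaling by the median of ratios 2 were higher, 2.33%, and 6 lower, 6.98%, against 11.7% and 14.6%. The ribosomal median was 0.02, 0.03 and -0.19 in that order, and relative to all tested coding genes it was -0.29, -0.24 and -0.33. The split of the calls changed with the scaling, and under these scalings each share was near or under that of all coding genes. Without protrusion 2 the number called lower was 31, and it was 7 without protrusion 3, 4 or 5 or cell body 1 or 2.

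The 160 differed from other coding messages in base composition. G+C content was singled out after its values were seen, among 11 features of the gene and transcript, so it is a description only. For each gene 1 GENCODE transcript on GRCh38 was used, and 157 of the 160 had one (not CISD3, C19ORF24 and NOL12). The median G+C content was 59.5% over the 157, with quartiles at 53.4% and 63.2%. It was 48.8% over 3194 other coding entries with a protrusion mean of 10 or more, and 48.8% over 462 of the 489 coding entries that met the same limits towards cell bodies. Both of these groups keep the families that were left out of the 160 by name. At the third base of codons, where many changes leave the amino acid as it is, the medians were 73.5%, 56.3% and 57.5%. In the 3′ UTR they were 54.4%, 41.4% and 43.2%. Members of the set were richer in G+C in both coding and untranslated sequence.

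For illustration, the first 90 coding bases are given for the highest-level messages of the GC-rich and the GC-poor quintile of coding entries, with G and C in capitals, 5′ to 3′. CYBA (chromosome 16, 88643283 to 88651152, minus strand, G+C 59.0%) and TAF10 (chromosome 11, 6606296 to 6612667, minus strand, 64.1%) come from the rich quintile. RBM25 (chromosome 14, 73058436 to 73123898, plus strand, 39.0%) and C9orf123 (chromosome 9, 7796490 to 7888380, minus strand, 40.7%) come from the poor one. Gene positions are on GRCh38, and G or C made up 60, 77, 50 and 60 of the 90 bases in this order. CYBA and C9orf123 had equal counts, so these short stretches do not separate the quintiles, which were cut on the whole transcript.
CYBA: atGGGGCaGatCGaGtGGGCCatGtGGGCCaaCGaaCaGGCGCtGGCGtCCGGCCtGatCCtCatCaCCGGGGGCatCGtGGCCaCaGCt
TAF10: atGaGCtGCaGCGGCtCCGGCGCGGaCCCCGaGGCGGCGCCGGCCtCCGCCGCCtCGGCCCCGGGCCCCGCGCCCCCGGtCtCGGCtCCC
RBM25: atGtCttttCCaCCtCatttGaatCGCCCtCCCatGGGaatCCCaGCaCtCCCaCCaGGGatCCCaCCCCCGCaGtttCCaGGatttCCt
C9orf123: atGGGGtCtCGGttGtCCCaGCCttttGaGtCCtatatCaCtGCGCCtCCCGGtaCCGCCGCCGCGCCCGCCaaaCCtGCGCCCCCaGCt

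The share of coding entries that met the rule rose with G+C content. From the poorest to the richest quintile it was 0.745%, 1.04%, 2.84%, 5.22% and 13.6%, that is 5, 7, 19, 35 and 91 messages. Only 5 of the 160 came from the poorest quintile: UACA, RBM25, a splicing regulator, C9orf123, MDFIC and PLGRKT, a plasminogen receptor. Their ratios were 2.20, 1.72, 1.63, 1.55 and 1.53. Transcript length went with membership less steeply: from the shortest to the longest quintile the share was 7.45%, 5.22%, 3.13%, 4.33% and 3.28%. The median length was 1533 bases for the 160, 1912 for other coding entries at that level and 3042 for those towards cell bodies.

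**Figure D4:**
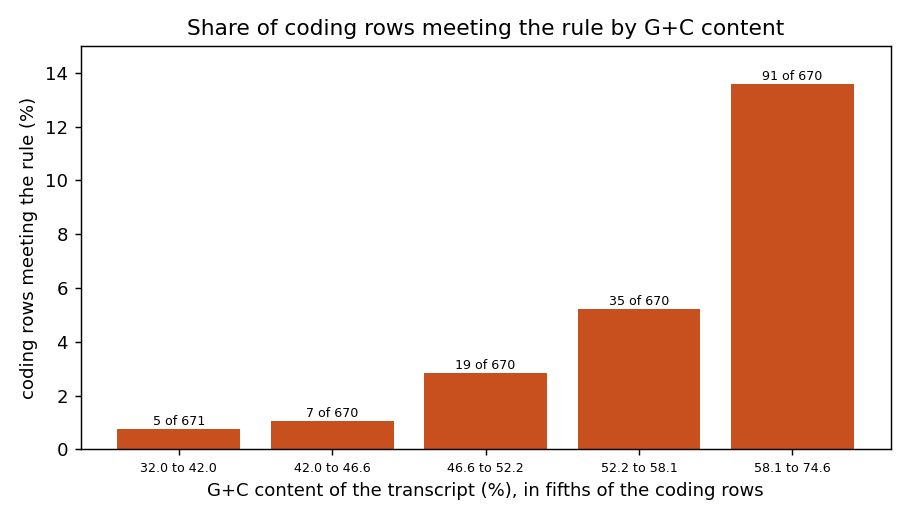
Percentage of coding entries with a protrusion mean of 10 or more that met the rule (vertical), in quintiles of transcript G+C content (horizontal, range in percent), with the counts above the bars. The share climbs from 0.745% in the poorest quintile to 13.6% in the richest.

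The same gradient ran through coding entries that reached the protrusion mean of the rule but did not meet the rule. These entries were kept by a limit on protrusions alone, which favours higher ratios among them. Their median ratio of protrusion to cell body rose from 1.09 in the poorest quintile over 1.16 in the middle one to 1.36 in the richest, while that of the 160, held above 1.5 by the rule, was between 1.57 and 1.65 in every quintile. Within single libraries, the median level of 579 GC-rich entries outside the rule was divided by that of 666 GC-poor ones. This quotient was 1.11, 1.01, 1.39, 1.42 and 1.32 in protrusions 1 to 5 and 0.805, 0.818, 1.00, 1.04 and 0.966 in cell bodies 1 to 5. Protrusion 2 lay below cell body 4, so the groups overlapped. In each replicate number the protrusion was above its cell body, and libraries 1 and 2 were the low ones of both groups. The part of base composition in the membership of the 160 was not tested, nor was that of the limit on protrusions in the gradient.

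**Figure D5:**
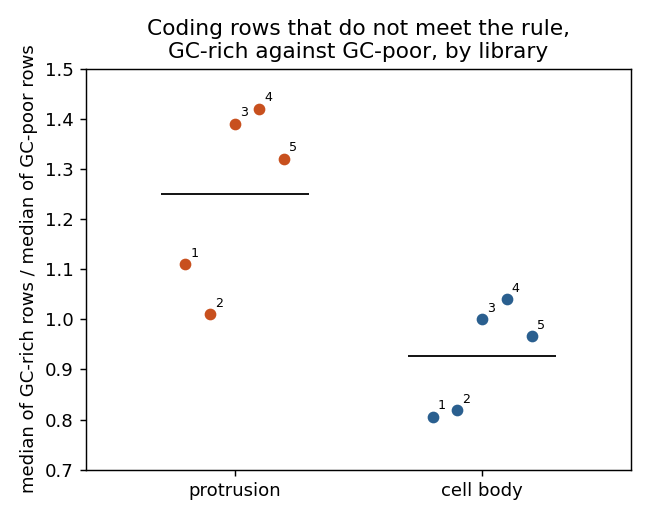
Median level of the 579 GC-rich coding entries outside the rule divided by that of the 666 GC-poor ones, in each library (points, numbered by replicate), with the group mean as a line. Protrusions lie between 1.01 and 1.42 and cell bodies between 0.805 and 1.04. All entries used reached the limit of the rule on the protrusion mean.

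The share differed between chromosomes and followed their composition only in part. Of the coding entries with a protrusion mean of 10 or more, 12.3% met the rule on chromosome 9, 9.80% on chromosome 19, 8.43% on chromosome 16 and 8.11% on chromosome 22, with median G+C contents of those entries at 52.0%, 59.3%, 55.7% and 56.0%. On chromosome 17, with a median of 53.0%, it was 3.65%. None of the 32 entries on chromosome 21 or the 99 on chromosome 4 did, where the medians were 48.6% and 42.6%. The hexamer GAGAGA, a letter run within motifs reported for messages that localise to protrusions, was looked for on the sense strand of the 3′ UTR, overlapping matches counted. It was in 31 of 157 messages, 19.7%, in 22.5% of other coding entries at that level and in 26.8% of those towards cell bodies. Per 1000 bases of 3′ UTR there were 0.423, 0.362 and 0.323 matches, so the order turned with length.

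Some of the 160 share sequence with another gene, and the counting, whose use of strand is not given in the sources used here, may have divided reads between them. In GENCODE, 63 of the 160 had no exon base in common with another gene, 50 shared over 10% of theirs, 30 over 25% and 13 over 50%. The 107 with at most 10% had a median G+C content of 59.9%. OVCA2 (chromosome 17, 2041936 to 2043430, plus strand) lies wholly within exons of DPH1 (2030110 to 2043430, plus strand), an enzyme of diphthamide synthesis. DPH1 went the other way, at 5.17 ± 2.59 in protrusions and 43.5 ± 7.57 in cell bodies (SD, n = 5 each; adjusted p = 1.24e-06 by limma). Summed, the pair stood at 57.3 in protrusions against 52.0 in cell bodies, with overlapping groups and a ratio of 1.10. The values of OVCA2 and DPH1 therefore cannot be told apart from a different division of the same reads.

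Besides C19orf24, the symbols of 4 of the 160 each belong to 2 identifiers. The second OVCA2 entry, which did not meet the rule, was at 3.80 ± 2.89 in protrusions and 3.64 ± 2.13 in cell bodies (SD, n = 5 each). Second entries of PXMP2 and VKORC1 were low, at 1.00 against 0.478 and at 0.0854 against 0.0518. KLC1 is also listed under 2 identifiers. The one that met the rule, ENSG00000126214 (chromosome 14, 103561896 to 103714249, plus strand), was at 16.4 ± 8.16 against 8.05 ± 1.70, and ENSG00000256500 (103562962 to 103685924, plus strand), which runs on into APOPT1 and is AL139300.1 in GENCODE, was at 7.39 ± 2.21 against 13.7 ± 3.36 (SD, n = 5 each). Their sum was 23.8 against 21.8, a ratio of 1.09. APOPT1 with the same entry summed to 43.8 against 31.3, a ratio of 1.40. PRAF2 shares 43.6% of its exon bases with WDR45 on the same strand, and the pair had a summed ratio of 1.14. TAF10 shares 51.2% of its exon bases with other genes of either strand. The largest overlap is with ILK, which was itself at 51.6 ± 14.9 against 31.0 ± 9.80 (SD, n = 5 each). In all, 29 of the 160 overlapped a gene with at least 25% of their own level. For 22 of these a summed ratio was under 1.5, for 20 the summed groups overlapped, and for 12 the overlapping gene was lower in protrusions. Adding a gene with a lower ratio always lowers the summed ratio, so these counts alone do not show shared reads. Some overlaps were small, such as 0.229% of the exon bases of TXNL4A and 1.19% of those of MSRB3. No such count is given for other coding entries. The values of these 29 are uncertain where reads were divided, and the part of shared reads was not tested.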

How the data were processed

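Gene expression was measured in 5 protrusion and 5 cell body libraries, grouped and numbered from the labels. Tools listed in the submitters' processing notes are HISAT2, StringTie 1.3, FastQC 0.10.1 and cutadapt 1.10, their roles unstated. No build, annotation or strand setting is given in the sources used here. For the deposited signal no unit is stated. In each library 99.0% to 100% of values under 2 were whole multiples, within 0.0007, of TPM to 2 decimals times 1 factor set by the library's sum, where unrelated values would give 10.1% to 19.0%. No depth follows from it, so no counting interval is given. The authors' deposited log2 fold change, p-value and false discovery rate, per the file headers, were used only where named.

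Genes at 1 or more in at least 5 libraries entered limma (3.58.1, R 4.3.3, trend on) as log2(value + 1), adjusted by Benjamini-Hochberg over all tested genes at a threshold of 0.05, after a test on simulated data. Other steps used Python 3.11.15 with pandas 2.3.3, numpy 2.4.6, matplotlib 3.10.9 and scipy 1.17.1. Transcript features came from GENCODE release 29, matched on the Ensembl identifier. The members and family lists were chosen with earlier results of these data known, and the features and overlaps after seeing the data. Promoters were matched for 124 of the 160, under the 80% needed, so a comparison of their motifs and composition is void and not reported. Values in every library are given for the 12 messages with the largest ratio, the 8 with the highest protrusion mean and the 2 with the largest ratio of each family with 2 or more members. Family genes outside the rule were named from the 2 with the smallest p.

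Same-numbered libraries deviated together from their group means, at correlations across genes of 0.236, 0.577, 0.392, 0.329 and 0.264, and the design text calls the cell bodies the corresponding ones, so numbers pair the samples. The main fit ignores this pairing, and only the fit with the replicate block holds it. Scaling, pseudocount, filter, block, rule limits and left-out libraries were varied. Some items are not reported here.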

Additional observations from a re-analysis of the deposited data

Results flagged for a closer look

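Among 86 groups of 5 libraries (43 messages in 2 compartments), 3 held a library whose distance to its nearest neighbour was over 0.71 of the group's range, Dixon's limit for 5 values. Chance alone flags about 1 group in 20. C9orf16 was at 40.4 in protrusion 2 and at 18.3 to 22.9 in the other protrusions. YIPF3 was at 24.6 in protrusion 2 and at 31.1 to 32.3 in the others. KLC1, the kinesin light chain, was at 30.5 in protrusion 5 and at 9.99 to 15.5 in the others. No explanation was tested for any of these values.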

How the results depend on the processing

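The number of messages meeting the rule, 160, depended on the scaling: it was 492 with each library set to the same sum (138 of the 160 among them), 348 after quantile normalization (139) and 387 after scaling by the median of ratios (160). It was 261 at the lower ratio limit, 11 at a ratio of 2, and 417 with no separation required; at a protrusion mean of 5 or 20 it was 188 or 127, and 171 with family names kept. Without 1 library it ran from 144 to 282, with 282 without protrusion 2 (147 of the 160 among them), 251 without cell body 3 (158), and without cell body 2 only 115 of the 160 still met it. With both libraries numbered 2 left out, an alternative chosen after seeing the data, it was 201 (111). Fewer libraries make the separation easier to meet.

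Coding genes called higher by limma numbered 430, and 1390, 1711 and 1045 under the 3 scalings in the order above, 1319 with the replicate block, and 238 (without cell body 5) to 617 without 1 library. Those called lower numbered 1532, and 2308 with no filter on low values, and 1359 to 1735 without 1 library. Calls in the 26 families numbered 406, and 665 with quantile normalization, 842 with the replicate block, and 305 to 509 without 1 library. The share of calls that were higher was 21.9%, and 56.2%, 61.4% and 44.5% in that order; over all tested genes the log2 change had a median of -0.03, which became 0.25, 0.25 and 0.09. Of the 129 ratios of the 43 messages given in every library under another scaling, 18 moved by more than the spread between replicates, 17 with equal sums and 1 by quantiles, and 0 reversed. Leaving out a library cannot reverse a ratio when the rule keeps the groups apart, so those values say nothing about stability. The depth is unknown, so its limits could not be stated.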
